A study of Homo sapiens with 8 samples.

Results

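The genes described here are those whose level moved in the same direction in 2 lung cancer cell lines made resistant to gefitinib, an inhibitor of the EGFR kinase. Both expression tables listed 48405 rows, each a gene name and a locus. Rows were matched by name and locus, and 14804 of them lay above 0 in all 8 libraries. Of these, 6396 had a mean change of the same sign in both lines, 2538 higher and 3858 lower in the resistant cells, and 8408 had opposite signs. The same-sign rows were thus 43.2% of those tested. How that total splits into higher and lower depended on scaling: with each library shifted to a common median within its line, 3388 were higher and 2949 lower.

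HCC4006 and HCC827 are established lines of non-small cell lung cancer with activating EGFR mutations. Each line gave 2 libraries of cells labelled DMSO, the solvent control, and 2 of cells labelled gefitinib treated. Per the labels, a culture counted as resistant once it grew routinely in 3 µM gefitinib, and the resistant populations were kept in the drug, so resistance and the presence of gefitinib cannot be told apart. The culture protocol also names BIBW2992, which no label gives to any of these 8 libraries. The labels do not say how many resistant populations were derived, nor whether the 2 libraries of each group were grown separately, so p-values measure only the spread between libraries, which may be technical. Polyadenylated RNA was sequenced, and values are FPKM, fragment counts scaled to transcript length and to the mapped fragments of the library. The files give no read counts, so the depth behind a value is unknown. Library letters A and B are those of the table columns.

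EGFR drives growth through the RAS-ERK and PI3K-AKT cascades, and cells that survive its inhibition often rely on another receptor kinase that feeds the same cascades, such as MET or a fibroblast growth factor receptor. A second common feature of resistant EGFR-mutant cells is epithelial-mesenchymal transition, in which cell-cell junction genes, held on by factors such as the grainyhead-like proteins, give way to genes of the cytoskeleton and matrix of mesenchymal cells. ZEB and SNAI factors repress epithelial genes by binding E-boxes with the core CAGGTG.

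The libraries held 17406 to 19333 rows above 0, with medians of 72.2 to 85.2 FPKM over the rows tested. The spread between the 2 libraries of a group, as the standard deviation of the log2 difference A minus B over all rows, was 1.01 for DMSO and 0.431 for resistant cells of HCC4006, and 0.782 and 0.869 for those of HCC827. Over the 20 rows of the mitochondrial chromosome, the median change on resistance was 1.17 log2 units in HCC4006 and 0.35 in HCC827. Of these rows, 0 were among the shared calls defined below. Of epithelial markers, EPCAM and KRT19 lay at 113 FPKM or more in every library and KRT8 at 975 or more, while KRT7 was listed at 0 in all 8. Immune and endothelial markers were low or absent apart from CD68, a lysosomal gene of macrophages that many other cells also express. Fibroblast markers were partly present, as their sums below show. PTPRC and CD3E, which define leukocytes and T cells, were at 0 throughout, as were the endothelial gene CDH5 and the fibroblast genes THY1 and FAP. The summed level of the 6 immune markers, nearly all of it CD68, ran from 296 to 1122 FPKM with DMSO and from 356 to 436 after resistance in HCC4006, and from 264 to 337 and 339 to 356 in HCC827. The part of these markers in the changes below was not tested. The sum of the 7 fibroblast markers ran from 71.7 to 122, from 96.6 to 119, from 44.1 to 50.9 and from 13.4 to 18.1 in the same order, and that of 3 endothelial markers did not pass 4.08.

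The promoters below belong to 3 genes that were lower in both resistant lines and 1 that was higher. They are shown because they differ in the E-box letters that ZEB and SNAI factors bind, and were picked after the matches were seen. Each is the 250 bases before the RefSeq start (GRCh38.p14), 5′ to 3′ on the gene's strand, with CAGGTG or CACCTG in capitals.
IGFBP2, chr2:216632578-216632827, plus strand: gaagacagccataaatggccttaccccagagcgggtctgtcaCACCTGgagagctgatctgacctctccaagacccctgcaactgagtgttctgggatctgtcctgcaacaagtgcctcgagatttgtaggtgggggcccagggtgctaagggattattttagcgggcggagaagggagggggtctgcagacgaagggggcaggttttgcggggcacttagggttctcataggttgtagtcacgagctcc
DSP, chr6:7541421-7541670, plus strand: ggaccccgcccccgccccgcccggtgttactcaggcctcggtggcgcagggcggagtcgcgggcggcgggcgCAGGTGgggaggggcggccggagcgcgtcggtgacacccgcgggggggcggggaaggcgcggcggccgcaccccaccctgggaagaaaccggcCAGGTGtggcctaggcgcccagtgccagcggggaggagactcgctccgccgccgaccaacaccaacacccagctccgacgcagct
MYO5B, chr18:50195148-50195397, minus strand: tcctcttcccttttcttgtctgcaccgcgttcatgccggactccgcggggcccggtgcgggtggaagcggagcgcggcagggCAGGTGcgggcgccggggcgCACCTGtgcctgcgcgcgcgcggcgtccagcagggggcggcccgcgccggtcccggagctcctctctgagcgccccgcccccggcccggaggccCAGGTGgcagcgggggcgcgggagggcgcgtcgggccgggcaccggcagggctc
VIM, chr10:17227991-17228240, plus strand: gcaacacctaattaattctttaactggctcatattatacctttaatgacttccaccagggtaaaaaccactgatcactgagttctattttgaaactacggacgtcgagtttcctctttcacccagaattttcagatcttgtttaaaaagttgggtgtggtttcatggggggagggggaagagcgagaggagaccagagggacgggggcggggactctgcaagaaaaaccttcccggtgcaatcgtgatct

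The match in the IGFBP2 promoter began 208 bases before the start, those in DSP 178 and 85 bases before it, and those in MYO5B 168, 148 and 54 bases before it. The VIM window held none. RefSeq promoters of 300 bases, from 250 before to 50 after the start, were matched by symbol and chromosome for 70 of the 112 rows with a single gene name among the shared calls defined below. CAGGTG or CACCTG, which are the same letters on the 2 strands, stood in 19 of 44 promoters of genes called lower (43.2%) and in 2 of 26 of genes called higher (7.69%), against 20.6% of all 35116 promoters of that length in the table. Among list members alone it stood in 4 of 5 lower promoters and in 0 of 2 higher ones. The AP-1 letters TGACTCA or TGAGTCA, again one motif on both strands, stood in 4 of 44 (9.09%) and 2 of 26 (7.69%), against 4.95%. The background promoters were not limited to genes of the rows tested, while the called genes all came from those rows. A match of letters is no evidence of binding, and these shares were not tested.

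The question of the comparison was which genes changed with resistance in both lines. In a limma fit of log2(FPKM + 0.5) with the line as an additive term and 1 effect of resistance, no row passed an adjusted p of 0.05 (Benjamini-Hochberg over 14804 rows), so 0% were called in either direction. The smallest adjusted p was 0.0845, reached by 10 rows, and 27 rows lay under 0.1. All 27 had the same sign in both lines, which this fit favours by its design. Without adjustment, 458 rows higher and 841 lower in both lines had p under 0.05. That fit takes its spread around a common change, so a gene that moved by unequal amounts in the 2 lines counts as noisy. A second limma fit, with 4 group means and the average of the 2 lines' changes, takes its spread only from libraries of the same group. It was adopted as the second reading after the first had called nothing. It called 164 rows, of which 135 had the same sign in both lines. These shared calls were 40 rows higher (0.27% of those tested) and 95 lower (0.642%), or 47 and 70 with libraries shifted to a common median. With rows at 0 kept (mean of at least 0.5 FPKM), 951 were higher and 550 lower, so the more frequent direction depended on the filter. A 0 there can be a failed estimate. "Rose" and "fell" below refer to the second fit on the 14804 rows.

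The average of 2 changes can pass on the strength of 1 line, so each line's own values stand beside every gene. Of the 135 shared calls, 113 had both resistant libraries on the same side of both DMSO libraries in each line, and 73 changed at least 2-fold in each line. In the same fit, HCC4006 alone had 231 rows called (1.56%) and HCC827 66 (0.446%). Of the shared calls, 73 were called in HCC4006, 29 in HCC827 and 34 in neither. Only 4 rows were called in both lines, and 1 of them, IGFBP2, moved in the same direction. The change differed between the lines in 168 rows (1.13%) by the interaction term, 21 of them shared calls. Without any test, 462 rows (3.12%) lay higher and 909 (6.14%) lower in both lines with no overlap of groups, while 2197 rows stood apart in opposite directions. At 2-fold or more in each line these numbers were 67 higher (0.453%), 137 lower (0.925%) and 288 opposite, and 99 and 109 of the same sign after the median shift. Across all rows tested, the changes of the 2 lines had a Pearson correlation of −0.103 and a Spearman correlation of −0.167, over genes, which are not independent replicates. Of the 231 rows called in HCC4006, 105 had the same sign in HCC827, and of the 66 called in HCC827, 34 had the same sign in HCC4006. Over all rows tested, 43.2% had the same sign in both lines, which is near these shares.

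**Figure D1:**
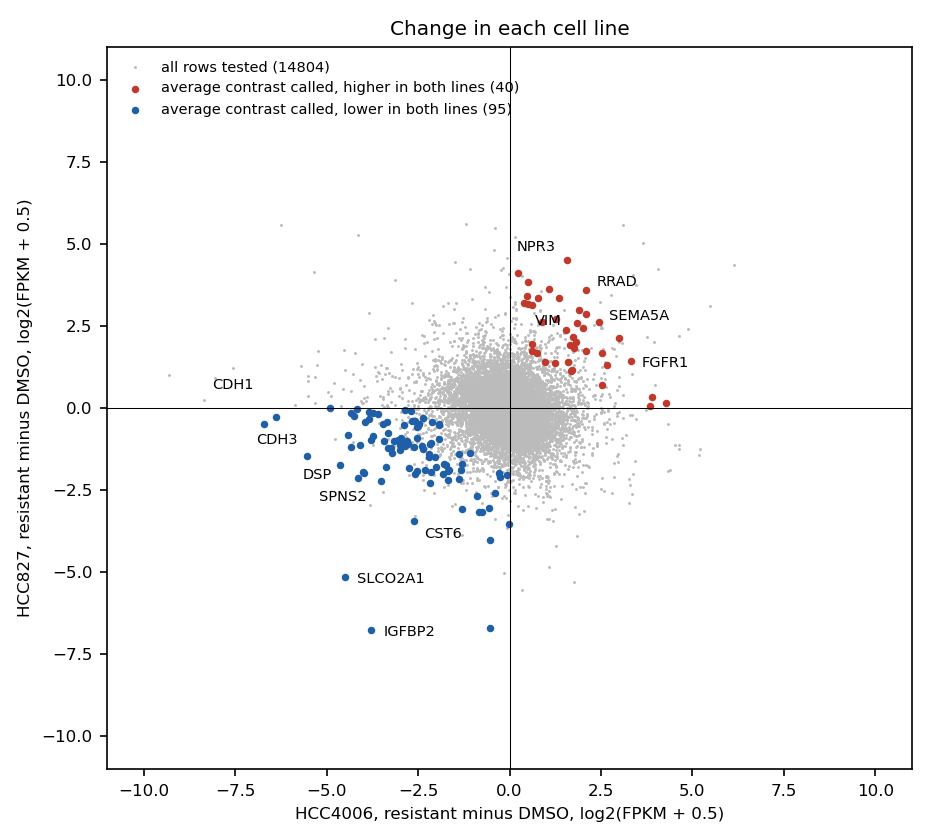
Each point is 1 of 14804 rows, with the change on resistance in HCC4006 on the x axis and in HCC827 on the y axis, both in log2(FPKM + 0.5). Red points are the 40 rows called higher and blue points the 95 called lower by the average contrast with the same sign in both lines, and some blue points lie near 0 for HCC827, such as CDH3 (−6.71 in HCC4006, −0.47 in HCC827).

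The calls depended on single libraries, but less on either HCC4006 DMSO library than on the others, which are given here. Leaving out resistant HCC4006 A left 0 rows higher and 3 lower, resistant HCC4006 B 0 and 4, and HCC827 DMSO A 0 and 3. With HCC827 DMSO B, resistant HCC827 A and resistant HCC827 B left out, the counts were 8 and 25, 2 and 23, and 8 and 48. IGFBP2 was called in all 8 such fits. SPNS2, RRAD and NPR3 were called in 5, and no other of the 30 ranked genes in more than 4. Only shared calls whose groups stood apart in each line were ranked, so that trait of the ranked genes was set by the selection.

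Receptors and ligands come first, since other receptors can replace EGFR. FGFR1, which encodes a receptor kinase for fibroblast growth factors (hg19, as all gene positions from here on, chromosome 8, 38268655 to 38326352), rose. In HCC4006 it measured 21.1 and 68.1 FPKM with DMSO and 345 and 428 in the resistant cells. In HCC827 the values were 4.44 and 2.65 against 12.2 and 8.61. The groups did not overlap in either line, which the ranking required. The level in resistant HCC827 stayed below that of HCC4006 DMSO. The name and locus of FGFR1 are listed more than once, and the row used here was matched between the lines by its order. The log2 changes were 3.32 and 1.45 (SE 0.57 in each line, adjusted p = 0.039 for the average and 0.193 in the additive fit). With a pseudocount of 5 they were 3.155 and 0.8485. The difference between the lines gave an adjusted p of 0.261, and FGFR1 was called in 2 of the 8 fits with a library left out.

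FGF2, the gene of a ligand of FGFR1, was listed in a row joined with AC021205.1, so its values cannot be assigned to 1 gene. That row measured 92.4 and 103 FPKM in HCC4006 DMSO against 275 and 200.2 in resistant cells, and 4.83 and 22.0 in HCC827 DMSO against 56.6 and 26.0. Both lines' groups stood apart, with changes of 1.26 and 1.83, and the row did not pass (adjusted p = 0.218 for the average). FGFRL1, a related receptor without a kinase domain, changed by 0.46 and 0.83 with groups apart in both lines and did not pass either (0.186). Of the 14 FGF ligands and receptors listed, 7 were at 0 in some library and 7 tested, of which 4 were higher in both lines, 0 lower and 1 a shared call. Over all rows, 17.1% were higher and 26.1% lower in both lines, and 0.27% were called higher.

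The receptors of the EGFR family showed no shared call. EGFR itself measured 1079 and 662 FPKM in HCC4006 DMSO and 770 and 752 in resistant cells, which overlap. In HCC827 it measured 5462 and 5246 against 1639 and 424, with no overlap. Its changes were −0.15 and −2.68 (adjusted p = 0.189 for the average). ERBB2 changed by −1.13 and 1.16 and ERBB3 by −3.91 and 0.20, in opposite directions. Among ligands, HBEGF, which encodes heparin-binding EGF-like growth factor, was lower in both lines without passing (−1.20 and −2.50, adjusted p = 0.11). So was ERRFI1, the gene of an intracellular inhibitor of EGFR (−0.66 and −0.84, 0.231). Of 11 tested members of this list, 1 was higher in both lines and 3 lower, against 17.1% and 26.1% of all rows.

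MET, the receptor of hepatocyte growth factor, changed by 0.21 in HCC4006 and 2.21 in HCC827. Its libraries read 2567 and 2391 FPKM in HCC827 DMSO and 19878 and 6628 in resistant HCC827. In HCC4006 the resistant libraries, at 1435 and 1521 FPKM, lay just above the DMSO libraries at 1202 and 1352. MET did not pass (adjusted p = 0.186 for the average). AXL, another receptor kinase often studied in resistant cells, had opposite signs (0.86 and −0.18). PDGFB, a ligand of platelet-derived growth factor receptors, fell, with a change of −0.53 in HCC4006, where groups overlapped, and −4.01 in HCC827 (adjusted p = 0.0476). No other of 18 tested members of the list of further receptor kinases and ligands was a shared call.

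The 15 higher rows ranked by the smaller of the 2 changes held VIM and FBN1 of the mesenchymal list. VIM encodes vimentin, an intermediate filament protein (chromosome 10, 17270257 to 17279592). Its level was 2036 and 3292 FPKM in HCC4006 DMSO and 9074 and 9193 after resistance. In HCC827 it measured 155 and 341 against 800.4 and 1071. The changes of 1.82 and 2.01 (SE 0.43) were near equal, with an adjusted p of 0.0333 for the average and 0.0948 in the additive fit. FBN1, which encodes fibrillin-1 of matrix microfibrils (chromosome 15, 48700504 to 48937918), read 40.4 and 105 FPKM in HCC4006 DMSO against 233 and 331, and 1.16 and 1.79 in HCC827 DMSO against 15.1 and 12.5. Its changes were 2.08 and 2.87 (SE 0.51, adjusted p = 0.0252). With a pseudocount of 5 they were 1.997 and 1.536, and FBN1 did not pass (adjusted p = 0.0565 for the average). Neither gene's groups overlapped in either line, which the ranking required.

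Of 18 tested mesenchymal genes, 7 were higher in both lines and 3 lower, against 17.1% and 26.1% of all rows, and VIM and FBN1 were the 2 shared calls. TNC and COL6A1, the genes of tenascin-C and a collagen VI chain, stood apart in both lines without passing (changes of 1.88 and 1.098, and of 2.80 and 1.84; adjusted p = 0.138 and 0.0901). The list's median was 0.86 in HCC4006 and 0.01 in HCC827. SPARC and THBS1 moved in opposite directions, by 1.65 and −0.89 and by 2.59 and −2.52. Fibroblast markers did not move alike in the 2 lines, as their sums given above show.

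Among EMT transcription factors no member was a shared call. ZEB1 changed by 3.29 in HCC4006 and −0.21 in HCC827. In HCC827 it lay at 5.602 and 7.63 FPKM in DMSO and 5.72 and 5.47 in resistant cells. ZEB2 was listed at 0 in 1 HCC827 DMSO library, and CDH2 at 0 in all 4 HCC827 libraries, so neither was tested. SNAI2 was higher in both lines (0.93 and 0.62) with overlapping groups.

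Among the other ranked rises, SEMA5A, which encodes a semaphorin of axon guidance (chromosome 5, 9001885 to 9546187), read 1.01 and 0.47 FPKM in HCC4006 DMSO against 6.63 and 5.52, and 0.88 and 0.99 in HCC827 DMSO against 13.1 and 5.21. Its changes of 2.44 and 2.62 (SE 0.51) gave an adjusted p of 0.0247. Its DMSO levels lay near the pseudocount of 0.5, and with a pseudocount of 5 the changes were 0.948 and 1.195. RRAD, the gene of a small RAS-related GTPase (chromosome 16, 66955581 to 66959547), read 88.7 and 85.1 FPKM in HCC4006 DMSO against 373 and 376, and 16.0 and 19.4 in HCC827 DMSO against 364 and 129, with changes of 2.10 and 3.58 (adjusted p = 0.014). NPR3, the clearance receptor of natriuretic peptides, rose by 1.56 and 4.52 (adjusted p = 0.0128).

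FZD7, a WNT receptor gene (chromosome 2, 202899309 to 202903160), read 40.4 and 39.9 FPKM in HCC4006 DMSO against 137 and 133, and 1.24 and 1.55 in HCC827 DMSO against 7.73 and 8.14. The libraries of each group lay close together, and the changes were 1.74 and 2.16 (SE 0.36, adjusted p = 0.0189). With a pseudocount of 5 they were 1.633 and 1.017. DKK3, a secreted protein gene of the dickkopf family, rose by 1.53 and 2.39 (0.046). A further receptor of this pathway, FZD3, moved the other way and fell by 2.00 and 1.79 (0.0333). FZD3 was not on the WNT list, of which 15 members were tested, with 5 higher and 3 lower in both lines. Over all rows these shares were 17.1% and 26.1%. FZD7 and DKK3 were the list's 2 shared calls, beside 0.27% of all rows called higher. After the median shift 8 list members were higher and 1 lower.

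The other ranked rises covered several functions. MOXD1, HLX (a homeobox factor), NOV (a matricellular protein) and B4GALT6 (a glycosphingolipid synthase) changed by 1.77 to 2.52 in HCC4006 and 1.69 to 2.98 in HCC827. With a pseudocount of 5 these ranges were 1.136 to 1.786 and 0.8517 to 2.153. PLA2G4A, the cytosolic phospholipase that frees arachidonic acid, changed by 1.66 and 1.92 (adjusted p = 0.0357). ACSL1, which activates long-chain fatty acids, changed by 1.36 and 3.37 (0.0361), and HPCAL1, a calcium sensor gene, by 1.60 and 1.395 (0.0271). In 6 of the 15, VIM, FBN1, FZD7, MOXD1, DKK3 and FGFR1, both resistant HCC827 libraries lay below both HCC4006 DMSO libraries. This held for 13 of all 40 rows called higher, of which 31 had a lower mean level in HCC827 DMSO than in HCC4006 DMSO. Neither share was counted over all rows tested, so these counts describe the called rows only.

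**Figure D2:**
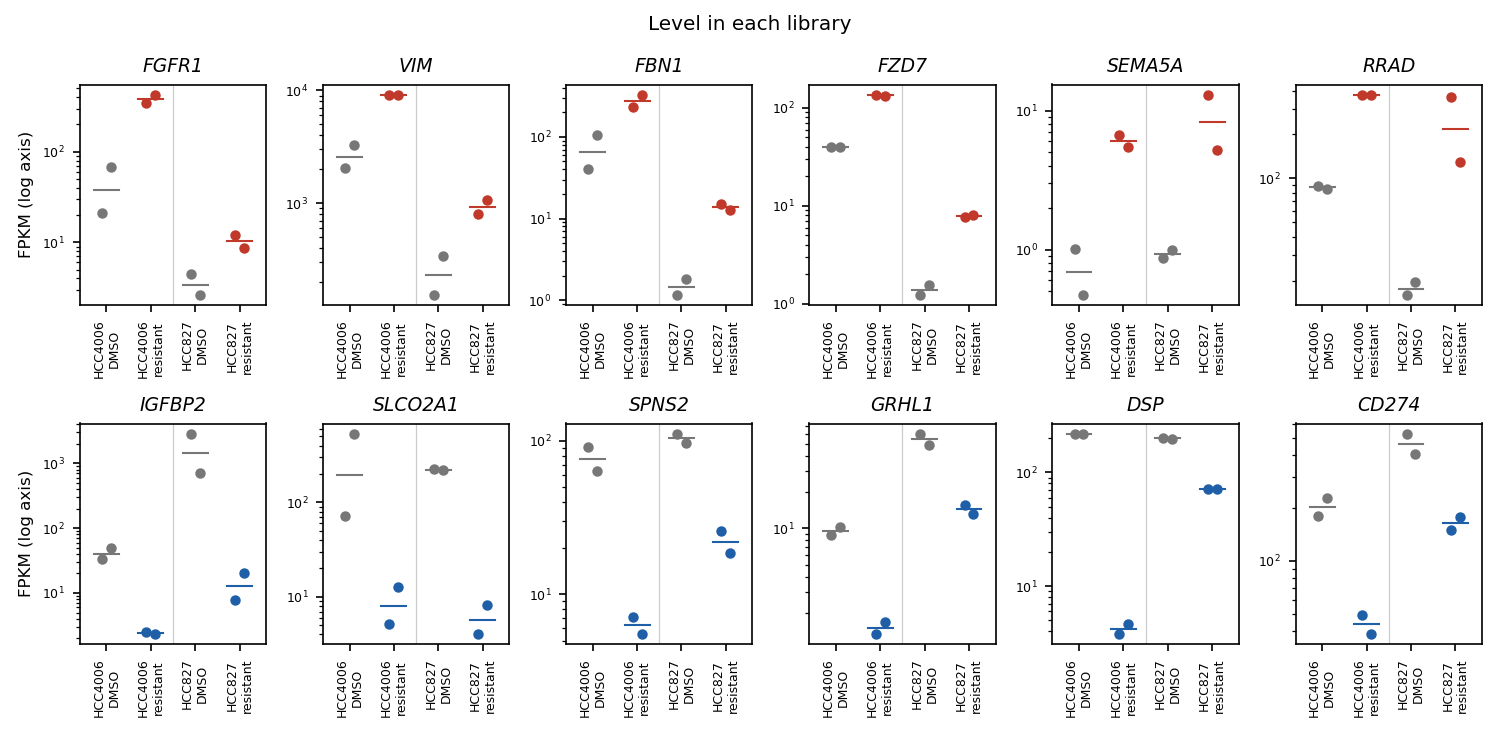
FPKM on a log axis for 12 shared calls, 6 higher (top, red) and 6 lower (bottom, blue), with 1 point per library, DMSO in grey and a bar at the geometric mean of the 2. In each panel the resistant libraries of both lines lie on the same side of their DMSO libraries. For all but DSP and CD274 the ranking required this. VIM in resistant HCC827 (800.4 and 1071) lies below HCC4006 DMSO.

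Of the ranked genes, the one called in every fit with a library left out was IGFBP2, which encodes a secreted binding protein of insulin-like growth factors (chromosome 2, 217497550 to 217529159) and whose promoter is printed above. It measured 33.5 and 48.7 FPKM in HCC4006 DMSO and 2.54 and 2.35 in resistant HCC4006. In HCC827 it measured 2882 and 710.1 against 7.78 and 20.5. DMSO cells of HCC827 held far more of it, and both resistant groups lay below every DMSO library. The changes were −3.80 and −6.76 (SE 0.69), with adjusted p of 0.039 in HCC4006, 0.0113 in HCC827, 0.00743 for the average and 0.0845 in the additive fit.

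SLCO2A1, which encodes a prostaglandin transporter (chromosome 3, 133651539 to 133771028), read 71.4 and 537 FPKM in HCC4006 DMSO against 5.13 and 12.8, and 226 and 220.2 in HCC827 DMSO against 4.08 and 8.13. Its changes of −4.51 and −5.15 (SE 0.87) made the largest smaller-of-two change of any ranked row (adjusted p = 0.0184). The HCC4006 DMSO libraries spread widely. SPNS2, the gene of an exporter of sphingosine-1-phosphate (chromosome 17, 4400688 to 4458681), read 91.1 and 63.6 FPKM in HCC4006 DMSO against 7.09 and 5.54, and 112 and 96.6 in HCC827 DMSO against 25.9 and 18.7. It fell by 3.50 and 2.21 log2 units (SE 0.38, adjusted p = 0.00743). CST6, a cysteine protease inhibitor gene, fell by 2.62 and 3.45 (0.0373), and CHDH, the choline dehydrogenase gene, by 2.18 and 2.27 (0.0339).

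Of the 12 list members called lower, 5 were on the epithelial junction list and 4 on that of epithelial regulators. GRHL1, a grainyhead-like transcription factor gene (chromosome 2, 10091821 to 10142405), read 8.88 and 10.3 FPKM in HCC4006 DMSO against 1.35 and 1.70, and 60.8 and 49.2 in HCC827 DMSO against 15.6 and 13.3. Its groups stood apart in both lines, which the ranking required, with falls of 2.32 and 1.89 (SE 0.38, adjusted p = 0.0184). Outside the lists, GJB2, the gene of the gap junction protein connexin 26, fell by 2.74 and 1.82 (0.0315). ANXA9, an annexin, and AIM1L fell by 4.01 and 1.95 and by 4.64 and 1.73 (0.0177 and 0.0373).

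DSP, which encodes desmoplakin, the protein that ties desmosomes to keratin filaments (chromosome 6, 7541807 to 7586950), measured 220.1 and 219 FPKM in HCC4006 DMSO and 3.81 and 4.62 in resistant HCC4006. In HCC827 it measured 200.5 and 198 against 71.8 and 71.9. All 4 groups were tight, and the changes were −5.55 and −1.46 (SE 0.30, adjusted p = 0.00100 for the average). The fall was larger in HCC4006 (adjusted p = 0.00792 for the difference). DSC2 and PKP3, which encode the desmosomal proteins desmocollin-2 and plakophilin-3, fell by 2.17 and 1.09 and by 3.32 and 0.75 (0.0184 and 0.0206). CDH3 and EPCAM, 2 adhesion genes, passed through HCC4006: CDH3 changed by −6.71 and −0.47 and EPCAM by −3.60 and −0.18, and in HCC827 their groups overlapped.

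Of 21 tested epithelial junction genes, 11 were lower in both lines and 1 higher, and 5 were shared calls, all lower. Over all rows 26.1% were lower in both lines and 0.642% called lower. The median change was −2.17 in HCC4006 and −0.20 in HCC827, beside −0.04 and −0.10 over all rows. CDH1, the E-cadherin gene, was no member of the shared set: it changed by −8.36 in HCC4006 and by 0.26 in HCC827. Among 19 tested epithelial regulators and trafficking genes, 6 were lower in both lines and 0 higher, against 26.1% and 17.1% of all rows, and 4 were shared calls, against 0.642% of all rows called lower. The 4 were GRHL1, the polarity gene LLGL2 (−2.69 and −0.10), the apical transport gene MAL2 (−3.84 and −0.35) and the recycling myosin gene MYO5B (−3.44 and −0.99). The list's median in HCC827 was 0.22. Without HCC827 DMSO B, 9 were lower and that median was −0.158, and without resistant HCC827 A, 9 were lower and it was −0.00194. The other HCC827 libraries moved it the other way. Without HCC827 DMSO A, 5 were lower and the median was 0.526, and without resistant HCC827 B, 5 and 0.412. ITGB4 and ITGB6, integrin genes of epithelia, were the 2 shared calls among 23 tested matrix and integrin genes, again through HCC4006 (−3.45 and −0.47, and −4.90 and −0.0045).

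Keratin filaments anchor to the desmosomes. KRT8 changed by −1.52 and −1.53, with 1596 and 5510 FPKM in HCC4006 DMSO against 1100 and 975, and 5187 and 5157 in HCC827 DMSO against 1175 and 2743. Groups stood apart in both lines, yet the wide spread in 2 groups left it short of the threshold (adjusted p = 0.181). Rows of processed pseudogenes, whose sequence is close to that of their parent gene and which can take its reads, moved with it. Of 9 tested rows named KRT8P, 7 were lower in both lines (medians −1.55 and −1.46), and 1 was a shared call. Of 17 rows named KRT18P, 15 were lower (medians −2.35 and −1.09), and 6 were shared calls, so these 7 rows are uncertain as genes of their own. No row for KRT18 on its own chromosome was found by name. The clone-named row AC107016.2 (chromosome 12, 53342654 to 53346686) covers the KRT18 position and was a shared call, lower (adjusted p = 0.0373 for the average). It read 3362 and 4868.5 FPKM in HCC4006 DMSO against 513.5 and 495.9 in resistant cells. In HCC827 it read 4935 and 5870 against 1570 and 4335. Whether its signal is that of KRT18 was not tested. The counts of 7 and 15 lower rows were the same under quantile normalization and the median shift. KRT19 changed by −3.55 and 0.37.

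**Figure D3:**
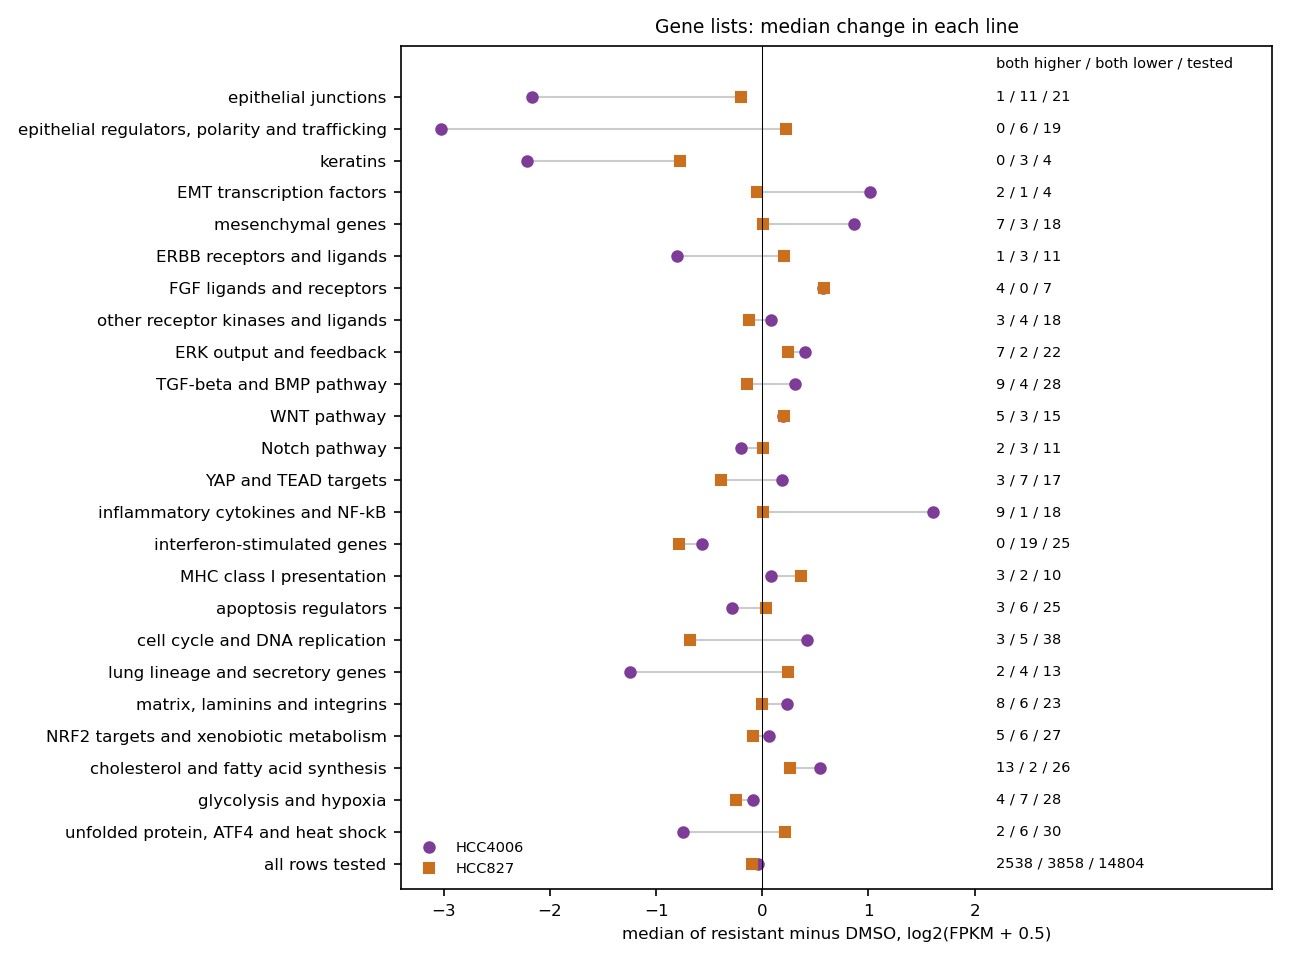
Median change on resistance of the tested members of each gene list in HCC4006 (circles) and HCC827 (squares), in log2(FPKM + 0.5), with the numbers of members higher in both lines, lower in both lines and tested. The 2 symbols lie close together for FGF ligands and receptors (0.575 and 0.583) and far apart for epithelial regulators (−3.03 and 0.224).

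The remaining ranked falls were MDFI, NCRNA00093, MYO15B, ARRDC4 and the row of hsa-mir-614. MDFI, an inhibitor of myogenic factors, fell by 3.97 and 1.99 (adjusted p = 0.014). MYO15B, an unconventional myosin row, fell by 2.53 and 1.92, and ARRDC4, an arrestin domain gene, by 1.83 and 2.00. NCRNA00093, a non-coding row, shared its locus with another row and fell to 0.0055 and 0.24 FPKM in resistant HCC4006, where the pseudocount sets its change of −4.13. The hsa-mir-614 row (chromosome 12, 13068762 to 13068852) read 499.8 and 768 FPKM in HCC4006 DMSO against 135 and 143, and 398 and 231 in HCC827 DMSO against 66.2 and 93.5, changes of −2.15 and −1.94 (SE 0.37, adjusted p = 0.0184). Its mature RNA is shown because the row names a microRNA while the libraries held polyadenylated RNA. RefSeq gives it as follows, with bases 2 to 8, the seed, in capitals.
hsa-miR-614: gAACGCCUguucuugccaggugg
The row starts 2164 bases after the end of GPRC5A, a retinoic acid-induced receptor gene of lung epithelium. GPRC5A changed by −1.29 and −1.53 with groups apart in both lines (adjusted p = 0.0656), so the 2 neighbouring rows moved alike. How much of the microRNA row's signal came from its own transcript was not tested.

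Shared calls outside the lists, chosen after their values were seen, included CD274, the gene of the immune checkpoint ligand PD-L1 (chromosome 9, 5450524 to 5470547). In HCC4006 it read 180 and 229 FPKM with DMSO against 49.1 and 38.5. In HCC827 the values were 533 and 406 against 151 and 178. All groups stood apart, with falls of 2.21 and 1.502 (SE 0.30, adjusted p = 0.014). SOCS2, a suppressor of cytokine signalling, fell by 1.2998 and 3.09 (0.0176), and EFEMP1, a fibulin gene, by 1.38 and 2.16 (0.0206). HOMER2, a scaffold gene, fell by 1.73 in each line (0.0408).

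Position on the genome was not part of how the genes were chosen, and the region below was picked after its values were seen. Of the 95 rows called lower, 11 lay in the first 20 Mb of chromosome 17, and none of those called higher. They were TRPV3, SHPK, SPNS2, MYBBP1A, ARRB2, CXCL16, KIF1C, TNK1, USP43, FLII and TOP3A, or 5.31% of the 207 rows tested there, against 0.642% over the genome. The region as a whole was lower in resistant HCC827. Over its 160 loci the median change was −0.88 in HCC827 and −0.11 in HCC4006, and 82.5% of loci were lower in HCC827, against 56.6% of all loci. Over the other 463 loci of the chromosome the medians were −0.07 and −0.06.

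Some of the 11 passed mainly through HCC827, such as TOP3A (−0.06 and −2.04) and KIF1C (−0.27 and −2.09). Others fell at least 2-fold in each line, such as SPNS2, ARRB2 (−2.05 and −1.49), CXCL16 (−4.34 and −1.20) and TNK1 (−1.69 and −1.93). None of the 11 was called in both lines on its own. SPNS2 and MYBBP1A shared 1 locus entry, as did FLII and TOP3A. Windows of 10 Mb with at least 20 loci numbered 253. The first window of chromosome 17 held 9 shared falls, and no other held more than 3. It also had the lowest median in HCC827, −0.95, followed by a window of chromosome 7 at −0.768. The part of this regional level in the shared calls was not tested. Without the 11 rows, 84 shared falls were left.

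**Figure D4:**
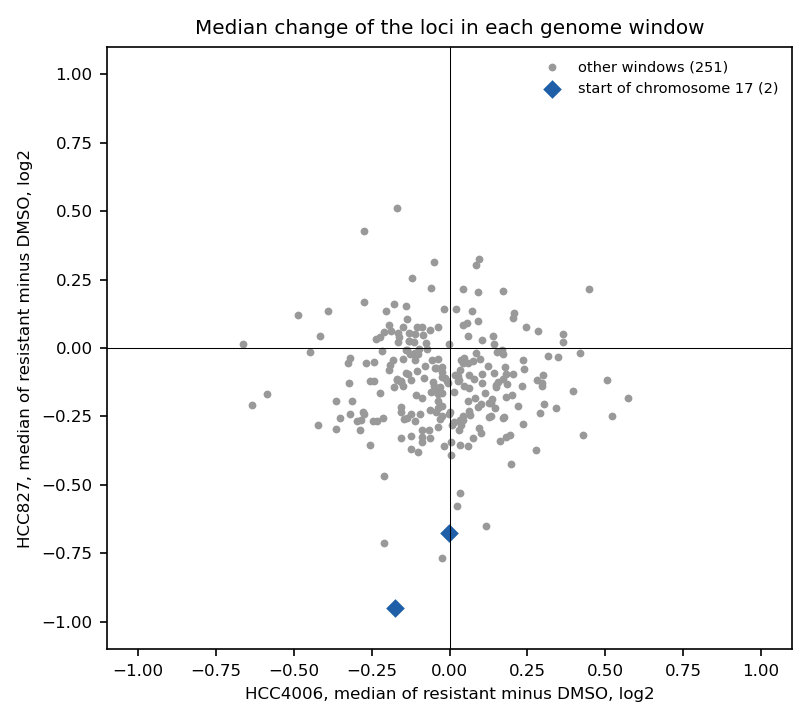
Each point is a 10 Mb window of the genome with at least 20 loci, with the median change of its loci in HCC4006 on the x axis and in HCC827 on the y axis, in log2(FPKM + 0.5). The 2 windows at the start of chromosome 17, drawn as diamonds, lie at −0.95 and −0.675 for HCC827 and near 0 for HCC4006.

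The lists described next held no shared call. Interferon-stimulated genes, which cells switch on against viruses, were lower in both lines in 19 of 25 tested members and higher in 0, against 26.1% and 17.1% of all rows, with medians of −0.56 in HCC4006 and −0.79 in HCC827. OAS2, IRF7 and IFIH1 were the 3 whose groups stood apart in both lines, all lower, against 6.14% of all rows. OAS2, an RNA-sensing antiviral enzyme gene, read 9.74 and 13.9 FPKM against 2.19 and 2.68 in HCC4006, and 439 and 40.2 against 16.1 and 29.6 in HCC827 (adjusted p = 0.199). The 2 HCC827 DMSO libraries differed, and A was higher than B in all 25 members (median difference 1.47). Without library A, 10 of 25 members were lower in both lines, and the HCC827 median was 0.20.

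Cholesterol and fatty acid synthesis genes were higher in both lines in 13 of 26 tested members and lower in 2. Over all rows, 17.1% were higher and 26.1% lower. After the median shift, 18 list members were higher and 2 lower. SQLE, a rate-limiting enzyme of sterol synthesis, and SREBF2, the factor that turns these genes on, changed by 1.54 and 1.08 and by 0.58 and 0.89, with groups apart and no call. Without HCC4006 DMSO A, 7 members were higher and 7 lower, and without HCC827 DMSO A 8 and 3. Inflammatory and NF-kB genes were higher in both lines in 9 of 18 tested members and lower in 1, with medians of 1.61 in HCC4006 and 0.01 in HCC827. Without HCC827 DMSO B, 3 of 18 were higher (HCC827 median −0.688), and without HCC827 DMSO A, 13 of 18 (0.689).

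The 38 tested cell cycle and DNA replication genes had medians of 0.42 in HCC4006 and −0.68 in HCC827, and 3 were higher and 5 lower in both lines. These values rested on single libraries: without HCC4006 DMSO A, 24 were lower in both lines and the HCC4006 median was −0.249, and without resistant HCC827 A, 14 were higher and the HCC827 median was 0.0807. Of 22 tested ERK output and feedback genes, 7 were higher and 2 lower in both lines, against 17.1% and 26.1% of all rows. None of the 22 was a shared call. Over all 27 lists, 456 distinct genes were tested and 219 more were at 0 in at least 1 library. Of those tested, 5 were called higher (1.1%) and 12 lower (2.63%), against 0.27% and 0.642% of all rows. These lists were drawn up with earlier results of these data known, so their shares are a description.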

How the data were processed

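RNA-seq of polyadenylated RNA was given for 8 libraries, 2 of DMSO and 2 of gefitinib-resistant cells for each of HCC4006 and HCC827. The deposited tables hold FPKM per gene row, on hg19, per the submitters' processing notes, which name TopHat 1.4.1, Cufflinks 1.3.0 and Cuffdiff. Settings were not stated in any source used.

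Rows were matched by gene name and locus. In 483 cases these repeated within a table (1126 rows, 191 of them tested), and repeats were matched by their order, which is the same in both tables. The 33601 rows at 0 in some library were left out, since a 0 can be a failed estimate. Rows at 0 in both DMSO libraries of 1 line and above 0 in all others numbered 405 for HCC4006 and 466 for HCC827. For the resistant libraries these counts were 182 and 162. Values were fitted as log2(FPKM + 0.5), which understates changes of low rows, with limma 3.58.1 in R 4.3.3 (mean-variance trend, Benjamini-Hochberg over 14804 rows, threshold 0.05), checked on simulated data. The main fit had the line as an additive term. A fit with 4 group means was set out as a second design, and its use for naming genes was decided after the main fit called none. Genes were named by rule: of shared calls with groups apart in each line and a single gene name, the 15 higher and 15 lower with the largest smaller change, every list member called, and 12 genes of the study's question. Of the rows tested, 845 carry joined names, 4498 clone-style names and 4743 share a locus entry with another row. The members and gene lists were chosen with earlier results of these data known. Column letters were not tied to the sample numbers in the labels. Left out in turn was each library, and the other alternatives are given in the closing section. Promoters and the microRNA are from RefSeq (GRCh38.p14), and no coordinate was moved between builds.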

Additional observations from a re-analysis of the deposited data

Results flagged for a closer look

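The change on resistance differed between HCC4006 and HCC827 by the interaction term of the 4-group limma fit for 8 genes named above or held in the lists of adhesion and EMT genes. The adjusted p was 0.000417 for CDH1, 0.00502 for CDH3, 0.00792 for DSP, 0.0138 for ITGB6, 0.018 for MAL2, 0.0293 for EPCAM, 0.0432 for ITGB4 and 0.0434 for ZEB1. In all 8 the change was larger in HCC4006. CDH1 and ZEB1 had opposite signs in the 2 lines. The other 6 were lower in both lines and are counted among the shared calls, but DSP alone of them fell by more than 2-fold in HCC827.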

How the results depend on the processing

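The files hold FPKM without read counts, so what depth limits cannot be stated, and 2 libraries a group limit every test. The additive fit still called 0 rows in each direction under pseudocounts of 0.1 and 5, the stricter filter of 10 FPKM, quantile normalization, the median shift, 1 row per locus, no mean-variance trend, and with repeated rows left out. The last of these, and the repeats of all alternatives on the 4-group fit, were chosen after seeing the data. With rows at 0 kept, the additive fit called 440 rows higher and 72 lower, the average contrast 951 and 550, and 613 and 243 rows stood apart at 2-fold or more. These counts come from a larger table in which a 0 may be a failed estimate. In place of the additive fit, the 4 group means called 40 and 95.

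Column letters were used as a replicate block within each line. Same-letter deviations correlated at −0.0845 in HCC4006 and 0.214 in HCC827, and no label ties same-letter libraries together, so the letters were not taken as pairs. With the replicate block the additive fit called 1 row lower (SLCO2A1, adjusted p = 0.0496), the average contrast 25 higher and 78 lower, HCC827 alone 30 rows, and 2 rows were called in both lines in the same direction. Of the 135 shared calls, 91 were called with the block.

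Fitted on its own, HCC4006 gave 46 calls and HCC827 6, with 0 shared. A pseudocount of 5 also left 0 rows called in both lines in the same direction, and 32 higher and 76 lower rows apart at 2-fold. With it the average contrast still called 109 of the 135 shared calls and 27 of the 30 ranked genes, without FBN1, DKK3 and MYO15B. Leaving out 1 library at a time, the additive fit called 0 to 1 rows higher (hsa-mir-1184 without HCC4006 DMSO B) and 0 to 1 lower (SLCO2A1 without HCC4006 DMSO A). The average contrast called 0 to 55 higher and 3 to 112 lower, HCC4006 28 to 652, HCC827 1 to 130, and 0 to 6 rows in both lines alike. Rows apart at 2-fold numbered 79 to 123 higher. The average change of no shared call turned its sign under these settings, and 110 of the 135 stayed shared calls after the median shift and 113 after quantile normalization. The additive change of ERBB2, which has opposite signs in the 2 lines, ran from −0.4125 to 0.2575. It was negative without any 1 HCC827 library (−0.01488, −0.4125, −0.2931 and −0.1344). The additive fit gives less weight to a line with a library left out. The equally weighted average of the 2 lines' ERBB2 changes ran from −0.2326 to 0.2645 over the fits with 1 library left out. Causes were not tested.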
